A study of Mus musculus with 8 samples.

Results

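The genes described are 46 named components of DNA replication and mitosis, taken by symbol from the 24062 genes of the count table (25215 entries with repeat subfamilies). They comprise 21 S-phase members, which encode E2F and B-Myb transcription factors, cyclin E and its kinase, origin licensing and firing factors, and the clamp and nucleotide enzymes. The other 25 are mitotic members, which encode the cyclin B kinase and its partners, mitotic kinases, spindle checkpoint and anaphase-promoting complex factors, motors and centromere proteins. All 46 were found in the table and all 46 passed the filter on low counts. Gene-level counts of poly(A) RNA were analysed in 8 libraries of 4 groups, 2 libraries each.

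The cells were 6KO iMEFs, immortalised mouse embryonic fibroblasts that lack Setdb1, Suv39h1, Suv39h2, Ehmt1 and Ehmt2, which encode H3K9 methyltransferases, and also Ring1b (Rnf2), a ubiquitin ligase subunit of Polycomb repressive complex 1. Every group carried all 6 deletions, so no group shows wild-type cells, and the labels do not say how many clones the line represents. The combined group received Ring1a shRNA and DS3201, the inhibitor group ctr shRNA and DS3201, the knockdown group Ring1a shRNA alone, and the control group ctr shRNA alone. DS3201 (valemetostat) inhibits EZH1 and EZH2, the H3K27 methyltransferases of Polycomb repressive complex 2, and was applied at 1 uM for 7 days. Ring1a (Ring1) is the paralogue of Ring1b. The shRNAs came from lentivirus at a multiplicity of infection of 2, followed by 3 days in 7 µg/ml blasticidin. The columns of a group start with 20 for 1 library and with 28 for the other, and these are called set 20 and set 28. Replicate numbers in the labels follow a batch field, and no label ties a column's prefix to a batch. Nothing states that libraries of a group came from separate cultures, so the tests measure only the spread between libraries, which may be technical.

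Cells enter S phase when cyclin E with Cdk2 and E2F factors switch on the genes for DNA synthesis, after the Mcm helicase has been loaded onto origins by Cdc6 and Cdt1. Later in the cycle cyclin B with Cdk1 starts mitosis, the spindle checkpoint holds sister chromatids together until every kinetochore is attached, and Cdc20 then activates the anaphase-promoting complex. In mammalian cells S-phase genes are typically driven through E2F sites, whereas many mitotic genes carry a cell cycle homology region (CHR) together with CCAAT boxes, which are bound by the DREAM and MMB complexes and by NF-Y. In a growing fibroblast culture the RNA of such genes reflects how many cells are dividing and where in the cycle they are. In bulk RNA, fewer cells in a phase and less RNA per cell cannot be told apart.

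Promoters of 5 members described below are shown as examples, and they do not stand for all members of their class. Each sequence is from RefSeq on build GRCm38.p6 and runs from 250 bases before to 50 bases after the annotated start, 5′ to 3′ on the gene's strand. The windows are chr1:128359656-128359955, minus strand for Mcm6, chr8:75109259-75109558, plus strand for Mcm5, chr4:118437294-118437593, minus strand for Cdc20, chr2:164769679-164769978, plus strand for Ube2c, and chr9:70421505-70421804, minus strand for Ccnb2. Capitals mark matches to E2F letters, to the CHR letters TTTGAA or to CCAAT, on either strand, and a match on the opposite strand reads as its reverse complement. The E2F letters searched were TTCCCGC, with TTCGCGC as a variant, and TTGGCGC as another variant. Adjacent or overlapping matches form 1 run of capitals.
Mcm6: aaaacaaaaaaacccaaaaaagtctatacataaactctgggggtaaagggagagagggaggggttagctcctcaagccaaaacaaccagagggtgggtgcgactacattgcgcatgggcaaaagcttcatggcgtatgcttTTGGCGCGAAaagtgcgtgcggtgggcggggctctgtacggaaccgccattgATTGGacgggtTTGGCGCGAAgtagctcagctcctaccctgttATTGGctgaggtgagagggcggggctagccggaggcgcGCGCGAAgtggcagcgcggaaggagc
Mcm5: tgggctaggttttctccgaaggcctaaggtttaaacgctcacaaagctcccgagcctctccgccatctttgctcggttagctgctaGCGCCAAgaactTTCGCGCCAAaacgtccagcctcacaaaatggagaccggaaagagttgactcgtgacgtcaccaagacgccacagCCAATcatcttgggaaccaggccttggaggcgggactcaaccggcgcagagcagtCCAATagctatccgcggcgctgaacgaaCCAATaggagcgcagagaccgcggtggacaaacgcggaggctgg
Cdc20: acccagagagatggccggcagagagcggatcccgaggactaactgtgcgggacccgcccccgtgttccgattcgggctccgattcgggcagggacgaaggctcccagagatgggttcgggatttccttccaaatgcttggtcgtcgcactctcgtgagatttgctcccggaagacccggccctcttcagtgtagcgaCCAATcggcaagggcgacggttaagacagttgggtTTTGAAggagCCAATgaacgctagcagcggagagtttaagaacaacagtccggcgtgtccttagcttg
Ube2c: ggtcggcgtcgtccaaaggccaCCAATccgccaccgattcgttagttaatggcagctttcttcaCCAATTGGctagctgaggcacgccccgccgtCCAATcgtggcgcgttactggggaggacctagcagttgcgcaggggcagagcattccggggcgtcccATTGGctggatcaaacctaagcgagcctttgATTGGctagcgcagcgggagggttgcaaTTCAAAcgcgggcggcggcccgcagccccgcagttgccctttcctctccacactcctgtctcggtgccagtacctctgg
Ccnb2: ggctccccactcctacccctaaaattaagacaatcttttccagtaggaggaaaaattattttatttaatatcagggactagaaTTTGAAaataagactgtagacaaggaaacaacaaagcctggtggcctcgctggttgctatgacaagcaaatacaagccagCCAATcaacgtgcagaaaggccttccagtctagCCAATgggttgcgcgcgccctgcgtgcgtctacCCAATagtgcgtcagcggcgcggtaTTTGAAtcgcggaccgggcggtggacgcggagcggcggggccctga
The Mcm6 and Mcm5 windows hold E2F letters and no CHR letters, whereas the Cdc20, Ube2c and Ccnb2 windows hold CHR letters and no E2F letters. Among other members described below, Cdk2 and Rrm1 also hold E2F and no CHR letters. Several do not follow that split. Mcm2 and Cdc45 hold CHR and no E2F letters, and Ccnb1 holds E2F and no CHR letters. Mad2l1, Ccne1, E2f1, Mybl2, Pcna, Rrm2, Tyms, Birc5, Bub1, Cenpe and Nusap1 hold neither, and E2f8 and Mki67 hold both. Of the 46 members, 39 have a promoter in the table used. Genes were counted, and a gene with more than 1 window, such as E2f2, Mcm7 or Prc1, counted if any window matched. E2F letters were present for 10 of 18 S-phase genes (55.6%) and 3 of 21 mitotic genes (14.3%), against 9.2% of all 27025 genes with a promoter. CHR letters were present for 4 of 18 S-phase genes (22.2%) and 14 of 21 mitotic genes (66.7%), against 20.2% of all those genes. CCAAT was present for 12 of 18 S-phase genes (66.7%) and 18 of 21 mitotic genes (85.7%), against 41.1% of all those genes. These matches describe letters in the windows and not bound sites.

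Total counts ran from 12738585 in the inhibitor library of set 28 to 23688253 in the knockdown library of set 20. The members held between 0.741% and 0.945% of the counts of a library. Ring1, the knockdown target, had 3.52 and 2.04 CPM in combined, 20.4 and 7.51 CPM in inhibitor, 4.51 and 1.41 CPM in knockdown and 20.2 and 9.73 CPM in control libraries, so each library with Ring1a shRNA was below its set's control. Throughout, values of a group are given as set 20 and then set 28, and CPM means counts per 1000000 counts of the TMM-scaled library. Rnf2 had between 26.4 and 89.0 CPM in all libraries, but gene counts do not show whether the deleted part of the gene was read. The summed level of 10 fibroblast markers was 12726.7 to 15291.9 CPM in the 4 DS3201 libraries. It was 19595.3 to 21751.5 CPM in the 4 libraries without DS3201, so the sum, not each marker, was lower in every DS3201 library. That of 5 epithelial markers was 140.1 and 29.6 CPM in combined, 136 and 23.1 CPM in inhibitor, 61.1 and 20.1 CPM in knockdown and 67.9 and 17.7 CPM in control libraries, higher with DS3201 within each set. Krt18 was at 0 in all libraries but the combined library of set 28, and Epcam was at 0 in the 4 libraries without DS3201. Thy1, a fibroblast marker, was at 0 in the combined and inhibitor libraries of set 28. The part of these marker shifts in the DS3201 comparisons was not tested. The sums were 8.14 to 21.9 CPM for 7 macrophage and blood markers and 11.1 to 22.6 CPM for 4 endothelial markers.

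Neither the inhibitor, the knockdown nor their combination gave a replication or mitosis gene that passed the test. No member had an adjusted p under 0.05 (edgeR's quasi-likelihood test, Benjamini-Hochberg adjustment over 15287 entries) in any of the 7 comparisons, in either direction. The share of all 14393 genes called was 0.757% for inhibitor against control, 0.639% for combined against knockdown, 5.7% for DS3201 averaged over both shRNAs, 1.54% for combined against control and 0% for both effects of Ring1a shRNA and for the interaction. At an unadjusted p under 0.05 the test gave 2 members for DS3201 on average, 2 for combined against control, 1 for combined against knockdown, 1 for combined against inhibitor and 0 for the other 3 comparisons. The share of all genes at that unadjusted threshold is not given here, so these counts do not show whether the members had many or few. DESeq2 called 1 member, Mcm6, which was lower in combined than in control libraries, where it called 7.14% of all genes. The standard error of a member's log2 fold change for DS3201 on average was 0.12 to 0.48, with a median of 0.18, so changes of that order could not be resolved. A missed threshold does not show that a level was the same.

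**Figure D1:**
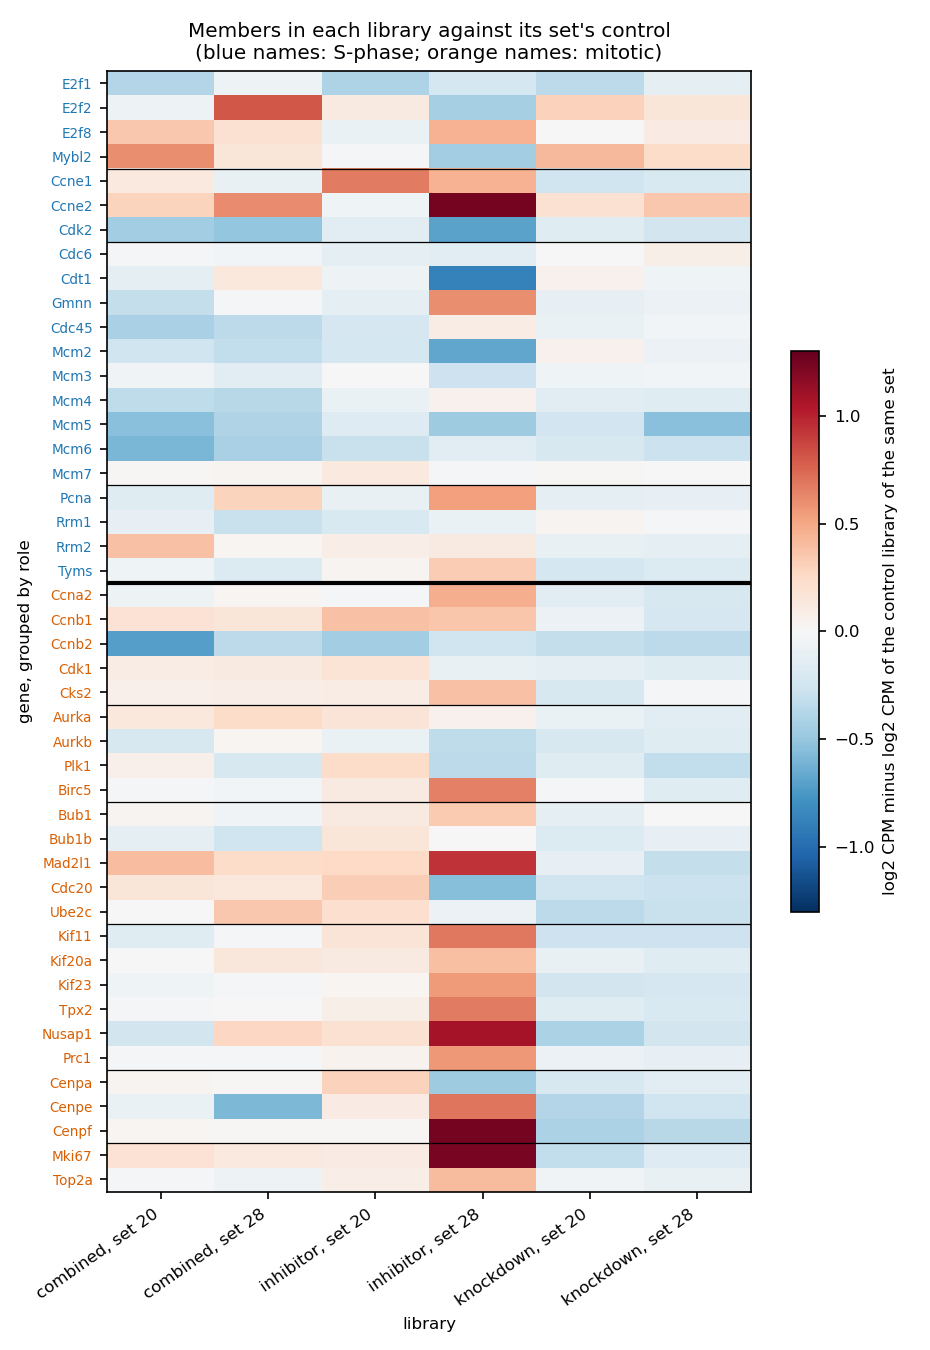
Difference in log2 CPM between each combined, inhibitor or knockdown library and the control library of the same set, for the 46 members grouped by role, with S-phase genes above the thick line. The inhibitor library of set 28 holds the deepest colours, with 17 members more than 0.5 from its control, while the knockdown libraries are mostly pale blue among mitotic genes.

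The transcription factors of the S-phase programme had average DS3201 changes between -0.14 and 0.22. Within each role, the members with the highest and the lowest average DS3201 change are among those described, and the other members described were added after their values were seen. E2f8, a repressor of the E2F programme, had 47.8 and 49.5 CPM in combined, 35.2 and 58.8 CPM in inhibitor, 37.2 and 46.4 CPM in knockdown and 37.4 and 43.1 CPM in control libraries. Its average DS3201 change was 0.22 ± 0.20 (log2 fold change ± SE, adjusted p = 0.647). Inhibitor and control libraries overlapped for E2f8, while both combined libraries lay above both control libraries. E2f1, an activator of S-phase genes, had 41.4 and 54.1 CPM in combined, 40.8 and 48.3 CPM in inhibitor, 42.6 and 51.7 CPM in knockdown and 53.8 and 56.5 CPM in control libraries, with an average DS3201 change of -0.14 ± 0.16 (adjusted p = 0.705). The library of each treated group was below its set's control for E2f1 in both sets. Mybl2, the B-Myb subunit of the MMB complex, was above its comparator in all 4 within-set pairs of Ring1a shRNA, 2 with and 2 without DS3201. It was the 1 such member, while 14.5% of all genes were higher in all 4. Without the pair that holds the inhibitor library of set 28, Mybl2 and Ccne2 were higher in each, against 23.9% of all genes. The levels of Mybl2 were 110.0 and 108 CPM in combined, 71.4 and 70.5 CPM in inhibitor, 96.6 and 114 CPM in knockdown and 72.1 and 96.5 CPM in control libraries.

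Both cyclin E genes had positive and their kinase a negative fold change with DS3201, and none passed the test. Ccne2 had 56.1 and 62.1 CPM in combined, 44.2 and 96.1 CPM in inhibitor, 52.7 and 51.9 CPM in knockdown and 45.8 and 40.6 CPM in control libraries, an average DS3201 change of 0.44 ± 0.25 (adjusted p = 0.439). The inhibitor library of set 28 was the highest for Ccne2, and the inhibitor library of set 20 was below its control. Cdk2, the kinase that cyclin E activates, had 48.3 and 48.2 CPM in combined, 60.0 and 42.0 CPM in inhibitor, 59.1 and 57.9 CPM in knockdown and 66.2 and 68.2 CPM in control libraries. All 6 treated libraries were below both control libraries, and the combined libraries were the closest to each other. The Cdk2 change was -0.34 ± 0.15 for DS3201 on average (adjusted p = 0.314) and -0.48 ± 0.21 for combined against control (adjusted p = 0.42). Ccne1, the other cyclin E, had 44.9 and 25.9 CPM in combined, 66.0 and 37.9 CPM in inhibitor, 34.4 and 24.2 CPM in knockdown and 41.2 and 27.7 CPM in control libraries. Set 20 was above set 28 in every group for Ccne1, and within each set the inhibitor library was the highest.

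Mcm4, Mcm6 and Cdc45, parts of the replicative helicase, were lowest in the combined libraries, without passing the test of the fit to all libraries. Mcm6, 1 of 6 Mcm subunits, had 256 and 271 CPM in combined, 315 and 330.1 CPM in inhibitor, 335 and 299 CPM in knockdown and 386 and 363 CPM in control libraries. Both combined libraries were below all other libraries, and both control libraries were above all others. For Mcm6 the change of combined against control was -0.51 ± 0.18 (adjusted p = 0.263 with edgeR), and DESeq2 gave -0.51 with an adjusted p of 0.0312. Mcm2, the lowest of the 10 licensing and firing members by average DS3201 change, had 234 and 214 CPM in combined, 240.2 and 167 CPM in inhibitor, 292 and 254 CPM in knockdown and 281 and 267 CPM in control libraries, a change of -0.36 ± 0.16 (adjusted p = 0.322). All 4 DS3201 libraries were below all 4 libraries without it. Mcm5 had 205 and 188 CPM in combined, 266 and 179.9 CPM in inhibitor, 251 and 169.8 CPM in knockdown and 298 and 248 CPM in control libraries, and the knockdown and inhibitor libraries of set 28 were below both combined ones. Mcm4 had 357 and 316 CPM in combined, 421 and 423 CPM in inhibitor, 407 and 363 CPM in knockdown and 448 and 406 CPM in control libraries, and both combined libraries were below all others. Cdc45, which joins the helicase at firing origins, had 58.0 and 48.9 CPM in combined, 66.7 and 66.2 CPM in inhibitor, 73.1 and 60.3 CPM in knockdown and 77.9 and 61.9 CPM in control libraries. For Cdc45 both combined libraries were below all others, while the inhibitor library of set 28 was above its control. Mcm7 stayed between 212 and 247 CPM in all 8 libraries. Gmnn, the inhibitor of Cdt1, was the highest of this role, with 25.1 and 22.0 CPM in combined, 28.5 and 33.9 CPM in inhibitor, 28.8 and 21.1 CPM in knockdown and 31.0 and 22.2 CPM in control libraries and an average DS3201 change of 0.07 ± 0.19 (adjusted p = 0.899). Cdt1 itself had 113 and 98.4 CPM in combined, 118 and 48.4 CPM in inhibitor, 127 and 85.6 CPM in knockdown and 123 and 89.2 CPM in control libraries, and only its inhibitor library of set 28 was far from its control.

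Among the clamp and nucleotide enzymes, Pcna, the sliding clamp of DNA polymerase, had 358 and 369.7 CPM in combined, 372 and 436 CPM in inhibitor, 365 and 281 CPM in knockdown and 398 and 302 CPM in control libraries. Its average DS3201 change was 0.19 ± 0.17 (adjusted p = 0.639). Rrm1, the large subunit of ribonucleotide reductase, had 264 and 316 CPM in combined, 249 and 366 CPM in inhibitor, 293 and 380.3 CPM in knockdown and 286 and 387 CPM in control libraries, with an average DS3201 change of -0.17 ± 0.20 (adjusted p = 0.73). For Rrm1 the groups overlapped and set 28 was the higher set throughout. Rrm2, the small subunit of the same enzyme, had 279 and 448 CPM in combined, 229 and 477 CPM in inhibitor, 201 and 404 CPM in knockdown and 215 and 439 CPM in control libraries, and the difference between the sets exceeded every difference between groups of 1 set.

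**Figure D2:**
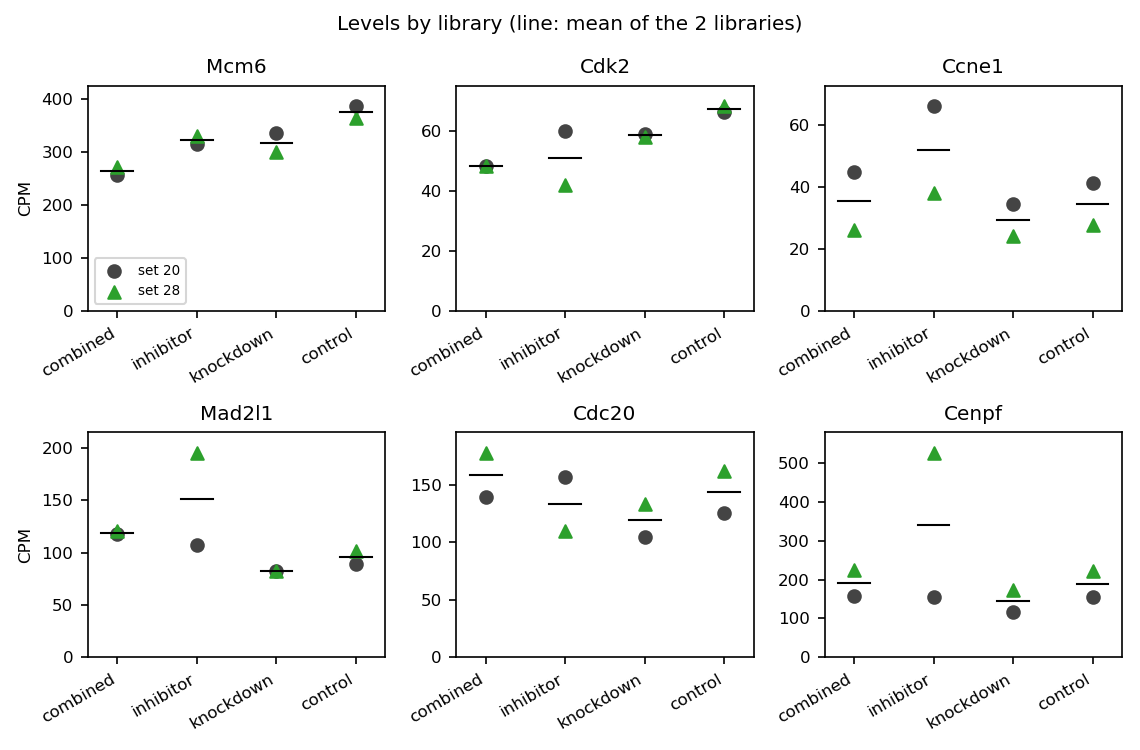
CPM of Mcm6, Cdk2, Ccne1, Mad2l1, Cdc20 and Cenpf in each library, by group, with circles for set 20, triangles for set 28 and a line at the mean of both libraries. The combined libraries are lowest for Mcm6 at 256 and 271 CPM, and the inhibitor library of set 28 stands alone for Cenpf at 526 CPM.

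The B-type cyclins had fold changes of opposite sign, neither past the threshold. Ccnb1 had 249 and 285 CPM in combined, 284 and 329.6 CPM in inhibitor, 207 and 219.6 CPM in knockdown and 218 and 256 CPM in control libraries, and its average DS3201 change was 0.35 ± 0.14 (adjusted p = 0.254). Each DS3201 library was above its comparator of the same set. Ccnb2, the second B-type cyclin, had 51.9 and 68.7 CPM in combined, 62.0 and 73.0 CPM in inhibitor, 68.7 and 69.0 CPM in knockdown and 85.1 and 87.2 CPM in control libraries, and all 6 treated libraries were below both control libraries. Its change was -0.27 ± 0.15 for DS3201 on average (adjusted p = 0.41) and -0.51 ± 0.21 for combined against control (adjusted p = 0.347). It was the 1 mitotic member below its comparator in all 4 within-set pairs of DS3201, where 20% of all genes were lower. Ccnb1 and Ccnb2 both have named pseudogenes, so reads could have been split between copies.

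Of the mitotic kinases and their passenger, Birc5 (survivin) had 69.1 and 88.3 CPM in combined, 75.5 and 143 CPM in inhibitor, 68.6 and 80.9 CPM in knockdown and 69.9 and 90.3 CPM in control libraries, with an average DS3201 change of 0.26 ± 0.24 (adjusted p = 0.65). Its high value was the inhibitor library of set 28. Aurkb, the kinase of the same chromosomal passenger complex, had 58.2 and 58.9 CPM in combined, 63.5 and 46.1 CPM in inhibitor, 58.1 and 51.9 CPM in knockdown and 67.4 and 57.9 CPM in control libraries, with a change of -0.05 ± 0.15 (adjusted p = 0.909).

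The spindle checkpoint gave the smallest adjusted p among members. Mad2l1, which encodes the checkpoint protein that restrains Cdc20, had 118 and 120.2 CPM in combined, 107 and 195 CPM in inhibitor, 82.7 and 82.2 CPM in knockdown and 89.2 and 102 CPM in control libraries. All 4 DS3201 libraries were above all 4 libraries without it, and the inhibitor library of set 28 was far above the rest. Its average DS3201 change was 0.60 ± 0.21 (adjusted p = 0.193). Bub1b, another checkpoint component, had 121 and 125 CPM in combined, 147 and 149 CPM in inhibitor, 116 and 139 CPM in knockdown and 131 and 149 CPM in control libraries and a change of 0.01 ± 0.13 (adjusted p = 0.972). Cdc20, the activator of the anaphase-promoting complex, had 139.5 and 178 CPM in combined, 157 and 110.0 CPM in inhibitor, 105 and 133 CPM in knockdown and 125 and 162 CPM in control libraries. Relative to the comparator of its set, Cdc20 was higher in 3 DS3201 libraries and lower in the inhibitor library of set 28. Ube2c, the ubiquitin-conjugating enzyme of that complex, had 131 and 170.4 CPM in combined, 152 and 127 CPM in inhibitor, 103 and 109.6 CPM in knockdown and 131 and 134 CPM in control libraries. The combined libraries were above both knockdown libraries for Ube2c, a change of 0.50 ± 0.21 (adjusted p = 0.485).

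The 6 motor and spindle members, Cenpe, Cenpf, Mki67 and Top2a were all highest in the inhibitor library of set 28, and Cenpa was not. Nusap1, a spindle microtubule protein, had 80.8 and 126 CPM in combined, 109.6 and 220.4 CPM in inhibitor, 71.5 and 88.5 CPM in knockdown and 95.4 and 104 CPM in control libraries, with an average DS3201 change of 0.55 ± 0.26 (adjusted p = 0.359). Prc1, the central spindle bundler and the lowest of the 6 in its role, had 143 and 161 CPM in combined, 149 and 241 CPM in inhibitor, 138 and 152 CPM in knockdown and 145 and 163 CPM in control libraries and a change of 0.20 ± 0.18 (adjusted p = 0.649). Outside the inhibitor library of set 28, Prc1 stayed between 138 and 163 CPM. Cenpf, a large kinetochore protein, had 157 and 225 CPM in combined, 156 and 526 CPM in inhibitor, 116 and 173 CPM in knockdown and 155 and 222 CPM in control libraries, and its change was 0.63 ± 0.40 (adjusted p = 0.487). Cenpa, the centromeric histone, had 57.6 and 92.8 CPM in combined, 69.1 and 66.2 CPM in inhibitor, 48.6 and 83.2 CPM in knockdown and 56.3 and 91.5 CPM in control libraries and a change of 0.03 ± 0.27 (adjusted p = 0.967). Mki67, the proliferation marker Ki-67, had 527 and 532 CPM in combined, 499 and 1150.4 CPM in inhibitor, 369 and 433 CPM in knockdown and 462 and 488 CPM in control libraries, a change of 0.60 ± 0.27 (adjusted p = 0.312). Without the inhibitor library of set 28, the DS3201 libraries of Mki67 were 499 to 532 CPM and those without DS3201 were 369 to 488 CPM. Top2a, the topoisomerase of mitotic chromosomes, had 604 and 612 CPM in combined, 649 and 853 CPM in inhibitor, 593 and 598 CPM in knockdown and 612 and 641 CPM in control libraries and a change of 0.15 ± 0.14 (adjusted p = 0.68).

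S-phase and mitotic members were then set side by side. For inhibitor against control, the median log2 fold change was -0.073 over the 21 S-phase members and 0.29 over the 25 mitotic members, a difference of -0.36. Within the sets that difference was -0.20 in set 20 and -0.47 in set 28. For combined against knockdown it was -0.20, with -0.23 in set 20 and -0.17 in set 28. For DS3201 averaged over both shRNAs it was -0.32, with -0.31 and -0.36 in set 20 and set 28, so S-phase members were lower relative to mitotic members in each pair of libraries. For combined against control the difference was -0.087, with -0.11 in set 20 and -0.083 in set 28. With the set as a block and the inhibitor library of set 28 left out, the difference was -0.23 for inhibitor against control and -0.20 for DS3201 on average. For inhibitor against control, that group is then the library of set 20 alone. Without the block, where the difference between sets enters, its value was -0.088. Combined against knockdown holds no inhibitor library, so its value could move only through filter, scaling and the terms of the fit that all groups share. It was -0.18 with the block, with or without that library. These comparisons share libraries: the control libraries serve inhibitor, knockdown and combined groups, and the knockdown libraries serve both combined against knockdown and knockdown against control. The members of a class are not replicates, so the medians carry no test.

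In direction alone, 14 mitotic and 3 S-phase members were higher in all 4 within-set pairs of DS3201, against 23.9% of all genes higher in all 4. The S-phase ones were Ccne1, Rrm2 and Tyms. Lower in all 4 were 5 S-phase members, Cdk2, Cdc6, Mcm2, Mcm6 and Rrm1, and 1 mitotic member, Ccnb2, against 20% of all genes. The 17 higher members are 37% of the 46 and the 6 lower members 13%. Without the pair that holds the inhibitor library of set 28, 19 mitotic and 4 S-phase members were higher in the remaining 3 pairs. Of all genes, 31.4% were. Lower in these 3 pairs were 7 S-phase members and 1 mitotic member, against 29.6% of all genes.

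**Figure D3:**
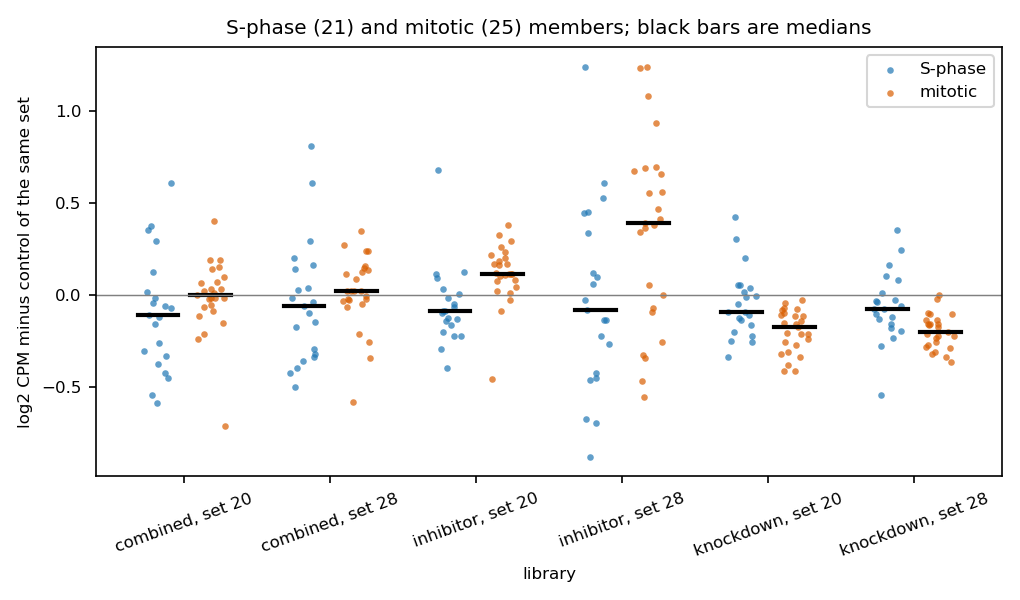
Each point is 1 member's log2 CPM minus that of the control library of the same set, with S-phase members at the left and mitotic members at the right of each library and a bar at the median. Mitotic medians are 0.11 and 0.39 in the inhibitor libraries of set 20 and set 28 and -0.17 and -0.20 in the knockdown libraries.

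The inhibitor library of set 28 stood apart in the members and in the whole table. Relative to its set's control, 17 of 46 members differed by more than 0.5 on the log2 scale, against 53.3% of all genes. In the other 5 treated libraries 0 to 4 members did so, against 13.1% to 37.2% of all genes. In a principal component analysis of the 46 members the first component held 64.1% of the variance, with that library at 3.70 and the other 7 between -2.03 and 0.70. It also had the fewest counts and the largest share of counts in repeat subfamilies, 14.6%. That share was 13.0% in the combined library of set 28, and 10.8% and 10.4% in the combined and inhibitor libraries of set 20. The lowest was 8.59%, in the knockdown library of set 20. The correlation of log2 CPM between the inhibitor library of set 28 and the other inhibitor library was 0.912. The pairs of the other 3 groups were at 0.945 to 0.947.

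The differences of the inhibitor library of set 28 from its control moved with the base composition of the transcripts and, among mitotic members, with their length. Over the 46 members, Spearman's correlation between transcript GC content and the difference from control was -0.71, and over 13680 genes with an annotated length it was -0.47. It was -0.59 within the S-phase members and -0.69 within the mitotic members. With transcript length the correlation was 0.34 over the 46 members, -0.34 within the S-phase members, 0.74 within the mitotic members and 0.15 over the same 13680 genes. In the other 5 treated libraries the members' correlation was -0.12 to 0.15 with GC content and -0.088 to 0.076 with length. Within the S-phase members, the correlation with length was -0.11 to 0.33 in those libraries. Its highest values were 0.33 and 0.29, in the knockdown libraries of set 20 and set 28. Within the mitotic members it was -0.15 to -0.034. These are descriptions over genes of the same libraries. The median GC content of S-phase members was 49.8% and that of mitotic members 46.6%, so the classes differ in the property that moved with this library. For example, Ccne2, an S-phase member with 36.3% GC, was higher by 1.24 than its control. Cdc20, a mitotic member with 55.6% GC, was lower by 0.56 (log2 difference -0.56). These were picked as examples, and other members departed from that order. Ccne1, an S-phase member with 52.7% GC, was higher by 0.45, and Cenpa, a mitotic member with 47.3% GC, had a log2 difference of -0.47. The part of GC content or length in the difference between the classes was not tested. In set 20, where the inhibitor library shows a correlation of -0.11, the S-phase minus mitotic difference was -0.20.

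**Figure D4:**
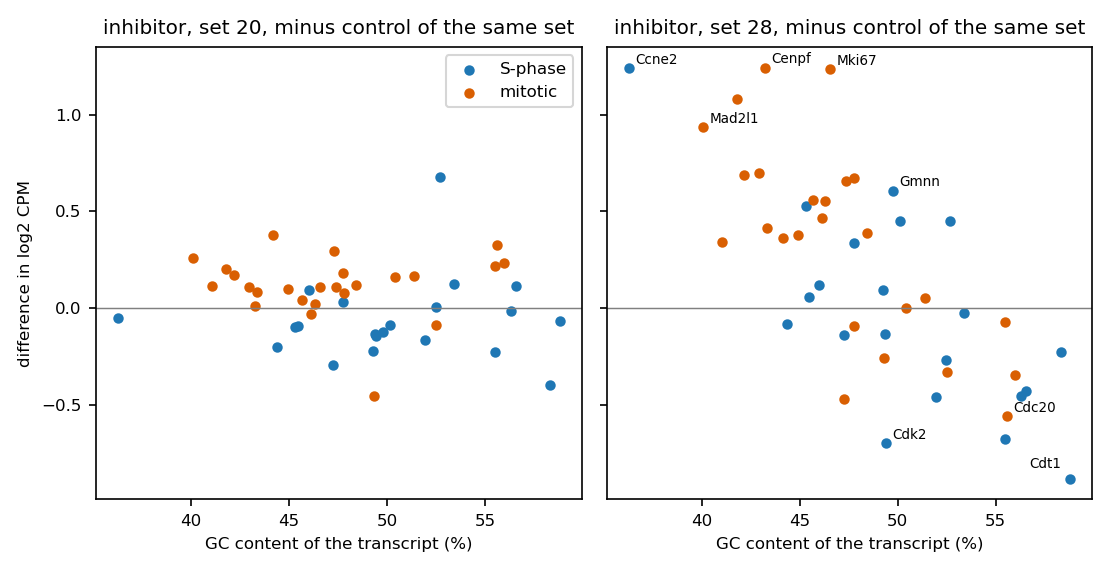
Difference in log2 CPM between the inhibitor library and the control library of the same set, against the GC content of each member's transcript, for set 20 and set 28. In set 28 the members with low GC are high and those with high GC are low, with a Spearman correlation of -0.71, whereas in set 20 it is -0.11.

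Leaving out the inhibitor library of set 28, with the set as a block, gave calls among the members. For DS3201 on average, 10 of 46 members passed an adjusted p of 0.05, or 21.7% of the members, against 26.8% of the 14939 genes then tested. The 5 higher members (14.4% of genes were called higher) were 4 mitotic ones and Ccne1. Cdc20 was higher by 0.33 ± 0.06 (adjusted p = 0.0125), Mad2l1 by 0.33 ± 0.07 (adjusted p = 0.0195), Ube2c by 0.35 ± 0.09 (adjusted p = 0.0309), and Ccnb1 by 0.30 ± 0.07 (adjusted p = 0.0229). Ccne1 was higher by 0.42 ± 0.08 (adjusted p = 0.018). The 5 lower members (12.5% of genes were called lower) were all S-phase ones. Mcm2 changed by -0.31 ± 0.07 (adjusted p = 0.0207) and Mcm6 by -0.31 ± 0.08 (adjusted p = 0.0323). The others were Cdc45 at -0.30 ± 0.07, Cdk2 at -0.26 ± 0.07 and Rrm1 at -0.26 ± 0.07, with adjusted p of 0.0246, 0.0368 and 0.0369 in that order. The inhibitor group then rests on 1 library, assumed to vary like the other groups. These standard errors and adjusted p therefore hold no spread between the inhibitor libraries. With the library of set 20 left out in its place, Cdc20 changed by -0.07 and Mad2l1 by 0.76. With the block and all 8 libraries none passed, and the smallest adjusted p were 0.0519 for Ccnb1, 0.0523 for Ccne1 and 0.0542 for Mad2l1, where 17.5% of genes were called.

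Of the 3 comparisons that do not contain the inhibitor libraries, 2 gained calls as well, and knockdown against control had 0. Leaving out this library also changed the genes that passed the filter and the scaling. For combined against control 9 of 46 members passed (19.6%, against 24.8% of genes). The 7 lower members were Mcm2, Mcm4, Mcm5, Mcm6, Cdc45, Cdk2 and Ccnb2, and the 2 higher ones were Ccne2 and Mad2l1. Mcm6 changed by -0.53 ± 0.09 (adjusted p = 0.0137), close to the -0.51 ± 0.18 of the fit to all libraries. Cdk2 changed by -0.50 ± 0.08 (adjusted p = 0.011) and Ccnb2 by -0.54 ± 0.12 (adjusted p = 0.026). For combined against knockdown 6 of 46 members passed (13%, against 13.7% of genes). Higher were Mad2l1, Cdc20, Ube2c, Cenpf and Mki67, with Mad2l1 at 0.51 ± 0.08 (adjusted p = 0.0167), and lower was Cdc45 at -0.33 ± 0.08 (adjusted p = 0.0481). The median standard error of the members for DS3201 on average was 0.18 in the fit to all libraries, 0.12 with the block and 0.068 with the block and without this library. In each of these 3 comparisons the share of members called was below the share of all genes called.

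Leaving out the inhibitor library of set 20 in its place, with the block, also gave calls, and the members differed. For DS3201 on average 18 members were then higher and 3 lower (45.7% of the 46, against 41.7% of 14830 genes). Mad2l1, Ccnb1, Ccne1, Mcm2 and Cdk2 were called in the same direction without either inhibitor library. For combined against control and combined against knockdown the same members were called without either one. These 2 comparisons then rest on the same 6 libraries, whichever inhibitor library is left out. Their calls could differ only through the filter and the scaling, so the second fit adds no support. For combined against control, Mcm6 changed by -0.51 without the library of set 20 and by -0.53 without that of set 28. In the other 3 comparisons that contain the inhibitor group, then the library of set 28 alone, the members' share was above that of all genes, with no test of that difference. For inhibitor against control 19 members were higher and 5 lower (52.2% of the 46, against 36.5% of genes), and for combined against inhibitor 4 were higher and 17 lower (45.7%, against 27.3% of genes). For the interaction, the difference between the DS3201 changes with Ring1a shRNA and with ctr shRNA, 3 were higher and 6 lower (19.6%, against 12.8% of genes). Without that library and with no block, Mad2l1, Mki67 and Ccne2 were higher for DS3201 on average (4.59% of genes were called higher). Leaving out any of the other 6 libraries with the block gave 0 calls in all 7 comparisons. The calls thus differed with the inhibitor library left out, and so did fold changes. Cdc20 changed by -0.07 ± 0.06 for DS3201 on average without the library of set 20, against 0.33 ± 0.06 without that of set 28. No fit to all 8 libraries made these calls, except that of DESeq2 for Mcm6.

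**Figure D5:**
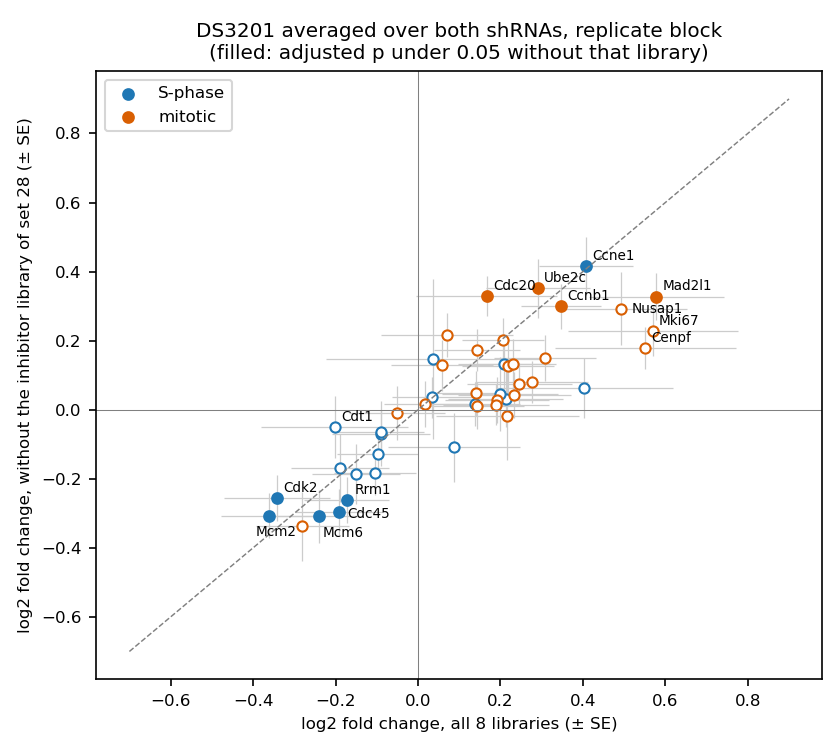
Log2 fold change of DS3201 averaged over both shRNAs for each member, without the inhibitor library of set 28 (vertical) against all 8 libraries (horizontal), both with the set as a block and with standard errors as thin lines. Cenpf, Mki67, Nusap1 and Mad2l1 lie well below the dashed line of equal values, and filled points are the 10 members called without it.

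No member was called for Ring1a shRNA without inhibitor, while most mitotic members had slightly lower values in both sets. The median difference from the control of the same set was -0.17 in set 20 and -0.20 in set 28 over the 25 mitotic members, and -0.091 and -0.076 over the 21 S-phase members. The median over all genes was 0.00 in both sets. Lower in both sets were 24 mitotic and 12 S-phase members, against 31.6% of all genes, and higher in both were 4 S-phase and 0 mitotic members, against 34.8% of all genes. The mitotic exception was Bub1, at 126 and 151 CPM in knockdown and 136 and 151 CPM in control libraries. Kif23, a central spindle kinesin, had 92.0 and 93.9 CPM in knockdown and 109 and 109.6 CPM in control libraries, which did not overlap. Ube2c likewise had 103 and 109.6 CPM in knockdown libraries, below the 131 and 134 CPM of the control libraries. Cenpf had 116 and 173 CPM in knockdown and 155 and 222 CPM in control libraries, and its groups overlapped. In this comparison 0% of all genes were called with or without the block. Over all 4 within-set pairs of Ring1a shRNA, 2 without and 2 with DS3201, 14 mitotic and 7 S-phase members were lower in each, against 13.8% of all genes. Without the pair that holds the inhibitor library of set 28, 21 mitotic and 10 S-phase members were lower in each, against 23.6% of all genes.

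Some members differed between the sets, in the fit to all libraries at a share close to that of all genes. With the set as a term, a comparison added after the data were seen, 9 members were higher and 4 lower in set 28 than in set 20, against 26.4% of all genes called. Without the inhibitor library of set 28 these were 12 and 9, against 32.6% of all genes. Rrm2 was higher in set 28 by 0.95 ± 0.11 and Cenpf by 0.84 ± 0.22, while E2f2 was lower by 1.04 on that scale (log2 difference -1.04 ± 0.26). E2f2 was the least abundant member, with 33 counts in the inhibitor library of set 28.

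Other cell cycle genes, from lists chosen with earlier results known, were mostly uncalled too. In the fit without a block, none of 21 origin factors, 27 polymerase and fork factors, 23 kinetochore and centromere factors, 23 spindle and cytokinesis factors, 14 condensin and cohesion factors, 15 G2/M regulators and 7 CDK inhibitors was called for DS3201 on average, where 5.7% of all genes were. Of 17 G1 regulators 1 was higher and 1 was lower. Ccnd2, which encodes cyclin D2, a partner of Cdk4 and Cdk6, had 81.4 and 227 CPM in combined, 47.0 and 150.5 CPM in inhibitor, 1.91 and 18.2 CPM in knockdown and 0.38 and 3.09 CPM in control libraries. All 4 DS3201 libraries were above all 4 others, and its average change was 4.92 ± 1.01 (adjusted p = 0.0418). E2f4, a repressive E2F of quiescent cells, had 32.0 and 34.6 CPM in combined, 31.3 and 34.0 CPM in inhibitor, 43.1 and 47.5 CPM in knockdown and 55.5 and 60.0 CPM in control libraries. The DS3201 libraries were below the others for E2f4, a change of -0.63 ± 0.13 (adjusted p = 0.0398). With the block, Cdkn1a, which encodes the CDK inhibitor p21, was higher by 1.26 ± 0.17 (adjusted p = 0.00392, against 0.0775 without the block), with 153 and 149 CPM in combined, 173 and 89.8 CPM in inhibitor, 92.0 and 63.1 CPM in knockdown and 61.4 and 31.1 CPM in control libraries. Also with the block, Spc25 of the kinetochore was higher, and Mcm10, Tfdp2 and Cdkn2b were lower. In all, 7 of the 147 listed genes were called with the block (4.76%), against 17.5% of all genes. With the block, the median change of the origin factors was -0.021 over all libraries and -0.14 without the inhibitor library of set 28. That of the spindle and cytokinesis factors was 0.18 over all libraries and 0.049 without that library.

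Of the members, 9 share exon bases with another gene of the table, mostly on the opposite strand, among them Ccne2, Cdk2, Cdc20, Ube2c and Nusap1. Whether the counting used strand is not given in the sources used here, so reads of such partners cannot be told apart. Pcna, Tyms, Ccnb1 and Ccnb2 have named pseudogenes in GENCODE M21.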

How the data were processed

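Poly(A) RNA libraries were made with the KAPA mRNA Hyper Prep Kit, per the labels' protocols. Trim Galore, TopHat2 and the mm10 build are named in the submitters' processing notes, without versions. For the counting tool and its strand setting, the value is not given in the sources used here. Raw counts per gene and repeat subfamily were deposited, as whole numbers. Columns were matched to groups by their names, and 8 further columns that no sample's labels match were not used. Counts were filtered with filterByExpr, scaled with TMM and tested with edgeR 4.0.16 (glmQLFit, glmQLFTest; R 4.3.3) on all 8 libraries, with Benjamini-Hochberg adjustment over all entries and a threshold of 0.05. SE is the absolute log2 fold change divided by the square root of F. Log2 CPM used a prior count of 2. DESeq2 1.42.0 was an alternative. The scripts were tested on simulated data. Transcript length and GC content came from GENCODE M21.

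The fit reported unless stated has no term for the set. The labels give the replicate number as a batch, which pairs libraries across groups, and fits with the column set as a block took the set for that batch. The differences between sets correlated between groups at 0.559 to 0.897 over genes. The members, the lists and the rule for named genes (the highest and lowest average DS3201 change in each role) were chosen with earlier results of these data known.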

Additional observations from a re-analysis of the deposited data

How the results depend on the processing

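No member changed its call under another scaling (RLE), no filter, genes only or, for the 5 comparisons of 2 groups, a fit to only the libraries compared, and DESeq2 gave 1 lower member for combined against control. The replicate block gave 0 calls, as did the fit without it, and changed no call of a member, while it raised the share of all genes called for DS3201 on average to 17.5%. Leaving out 1 library at a time, with or without the block, the number of members called ranged over fits. Higher members numbered 0 to 19 for inhibitor against control, 0 to 5 for combined against knockdown, 0 to 18 for DS3201 on average, 0 to 4 for combined against inhibitor, 0 to 2 for combined against control, 0 to 3 for the interaction and 0 for knockdown against control. Lower members numbered 0 to 5, 0 to 1, 0 to 5, 0 to 17, 0 to 7, 0 to 6 and 0 in the same order. In the same fits up to 36.5%, 13.7%, 41.7%, 27.3%, 24.8%, 12.8% and 0% of all genes were called, in the same order. With the set 20 inhibitor library left out and no block, 3 members (Mad2l1, Mki67 and Ccne2) were higher for DS3201 on average, where 4.59% of genes were. The fits with the block and without each library other than the inhibitor library of set 28 were chosen after seeing the data.

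With 1 library left out, the S-phase minus mitotic difference in medians was -0.53 to -0.088 for inhibitor against control, -0.34 to -0.086 for combined against knockdown, -0.42 to -0.14 for DS3201 on average and -0.30 to -0.059 for combined against control. It was -0.14 to 0.32 for knockdown against control, -0.092 to 0.39 for combined against inhibitor and -0.23 to 0.44 for the interaction, and so took either sign in those 3. Without the inhibitor library of set 28 it was -0.088 for inhibitor against control, and -0.20 for DS3201 on average with the block. A fit without the block and with 1 library missing compares groups of unequal sets, so the difference between sets enters its values. The comparison of set 28 with set 20 gave 12 higher and 9 lower members without that library, against 9 and 4 with it, while 32.6% of all genes were called without it and 26.4% with it. With 2 libraries a group, changes near the members' standard errors could not be resolved.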
